A study of Mus musculus with 6 samples.

Results

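The SLC25 family of mitochondrial carriers was examined in the transcripts of wild-type (WT) and Yme1l-/- mouse embryonic fibroblasts (MEFs). Every locus of the deposited count table with a symbol of the form Slc25a followed by a number was taken, which gave 47 of 51499 loci, and none of the 47 was merged with another gene. RNA of 3 cultures per genotype was sequenced after poly(A) selection. Both genotypes are SV40 immortalized MEFs from animals with loxP-flanked Yme1l alleles, transduced with Cre recombinase and grown up as individual clones. The WT cells kept the floxed alleles (Yme1l fl/fl), and the Yme1l-/- cells had lost them. How many clones stand behind the 3 cultures of a genotype is not given in the sources used here, so genotype and clone cannot be told apart, and the p-values measure the spread between cultures.

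SLC25 carriers are small proteins, most of them of the mitochondrial inner membrane. They are built from repeats of a sequence that starts with a signature around a proline, an acidic and a basic residue. Most carriers move a particular class of solutes, such as nucleotides, phosphate, carboxylates, amino acids, cofactors or iron, between the cytosol and the matrix. They are encoded in the nucleus, made in the cytosol and inserted into the inner membrane by the TIM22 complex. YME1L is an ATP-dependent protease of the same membrane, with its active site on the intermembrane space side. The comparison addresses which carrier transcripts differ between cells with and without this protease. Protein was not measured in these libraries.

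The libraries held 33180867 to 49351107 counted fragments, of which the 47 carriers took between 0.295% and 0.315% in each of the 6. Yme1l1, the targeted gene, averaged 188.7 ± 5.16 CPM (SD, n = 3) in WT against 39.1 ± 1.34 CPM in Yme1l-/-. CPM are counts scaled to a common library size with TMM factors. Fibroblast markers with a locus of their own, 9 of the 10 listed, summed to 6086 to 6301 CPM in the WT libraries and to 4291 to 4517 CPM in the Yme1l-/- libraries. Of the 8 marker loci tested, which include S100a4 in a merged locus, Col1a1 was higher and 6 were lower in Yme1l-/-. This is 87.5% called, beside 67.7% of all tested loci. Among the lower ones was Vim, with a log2 fold change of -1.33 ± 0.05 (SE), and Thy1 had at most 6 fragments in any library. Col3a1 and Dcn stood highest in WT replicate 2, with 9860 and 257 fragments, against at most 2974 and 52 in the other 5 libraries. Markers of other cell types, 11 of the 12 listed, summed to 34.8 to 36.8 CPM in WT and to 4.01 to 4.46 CPM in Yme1l-/-. Most of the WT sum was Krt18, which had 1012 to 1086 fragments in the WT libraries and 0 to 3 in the Yme1l-/- libraries, whereas Adgre1 was at 0 throughout. Epcam also fell, from 50, 42 and 35 fragments in WT to 2, 5 and 5 in Yme1l-/- (log2 fold change -3.83 ± 0.33, adjusted p = 1.49e-06). Of the macrophage and endothelial markers, Cd68 went the other way, from 1.77 ± 0.0819 to 3.62 ± 0.245 CPM (log2 fold change 1.04 ± 0.14, adjusted p = 4.83e-05), and Pecam1 had 0, 0 and 1 fragments in WT and 3, 6 and 10 in Yme1l-/-. The part of these marker differences in the carrier results was not tested.

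The family signature is shown first for the carriers of nucleotides, because the members compared most closely below belong to them. It was searched in the coding sequence of each gene (GENCODE M21, GRCm38) as a proline, any residue, an aspartate or glutamate, any pair of residues, and a lysine or arginine. Of the 47 members, 27 held 3 matches, 12 held 2, 5 held 1 and 3 held 0. The 3 without a match were Slc25a46, Slc25a51 and Slc25a53. The lines below give the coding strand of the matches 5′ to 3′, with the codons of the proline, the acidic and the basic residue in capitals.
Slc25a33, residues 31 to 36: CCActaGAAgtcattAAG
Slc25a33, residues 253 to 258: CCAcacGAGgtcatcAGG
Slc25a36, residues 26 to 31: CCActgGAAgttgtcAAA
Slc25a36, residues 246 to 251: CCAcacGAAgttgtaAGA
Slc25a4, residues 28 to 33: CCGatcGAGagggtcAAA
Slc25a4, residues 133 to 138: CCGctgGACtttgctAGG
Slc25a4, residues 230 to 235: CCGtttGACactgttCGT
Slc25a5, residues 28 to 33: CCCatcGAGagggtcAAG
Slc25a5, residues 133 to 138: CCTcttGATtttgccCGT
Slc25a5, residues 230 to 235: CCTtttGACacggttCGC
The adenine nucleotide carriers Slc25a4 and Slc25a5 held the signature at the same residues with mostly different codons, and their whole coding sequences matched at 77.5% of aligned bases and 89.6% of residues. The pyrimidine carriers Slc25a33 and Slc25a36 matched at 65.6% of bases and 62.3% of residues.

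Loss of Yme1l went with changes in most expressed carriers, in both directions and mostly small. Of the 38 members with enough fragments to be tested, edgeR called 16 higher and 12 lower in Yme1l-/- (adjusted p under 0.05), and 10 did not pass. The share called was 73.7%, whereas 67.7% of all 13867 tested loci were called, 33.6% higher and 34.1% lower. With the median log2 fold change of each chromosome removed, 17 members were higher and 7 were lower, and 62.8% of all loci were called. Calls with at least 1.5-fold change numbered 9 among the 38, namely 6 higher and 3 lower, beside 31.8% of all tested loci. The genotypes' libraries did not overlap for 31 members (81.6%), beside 71.9% of all tested loci. The median log2 fold change (Yme1l-/- over WT) of the tested members was 0.13, that of all tested loci was -0.0041, and the medians of the absolute values were 0.35 and 0.38. Counts and sizes of change in the family were thus near those of all loci.

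**Figure D1:**
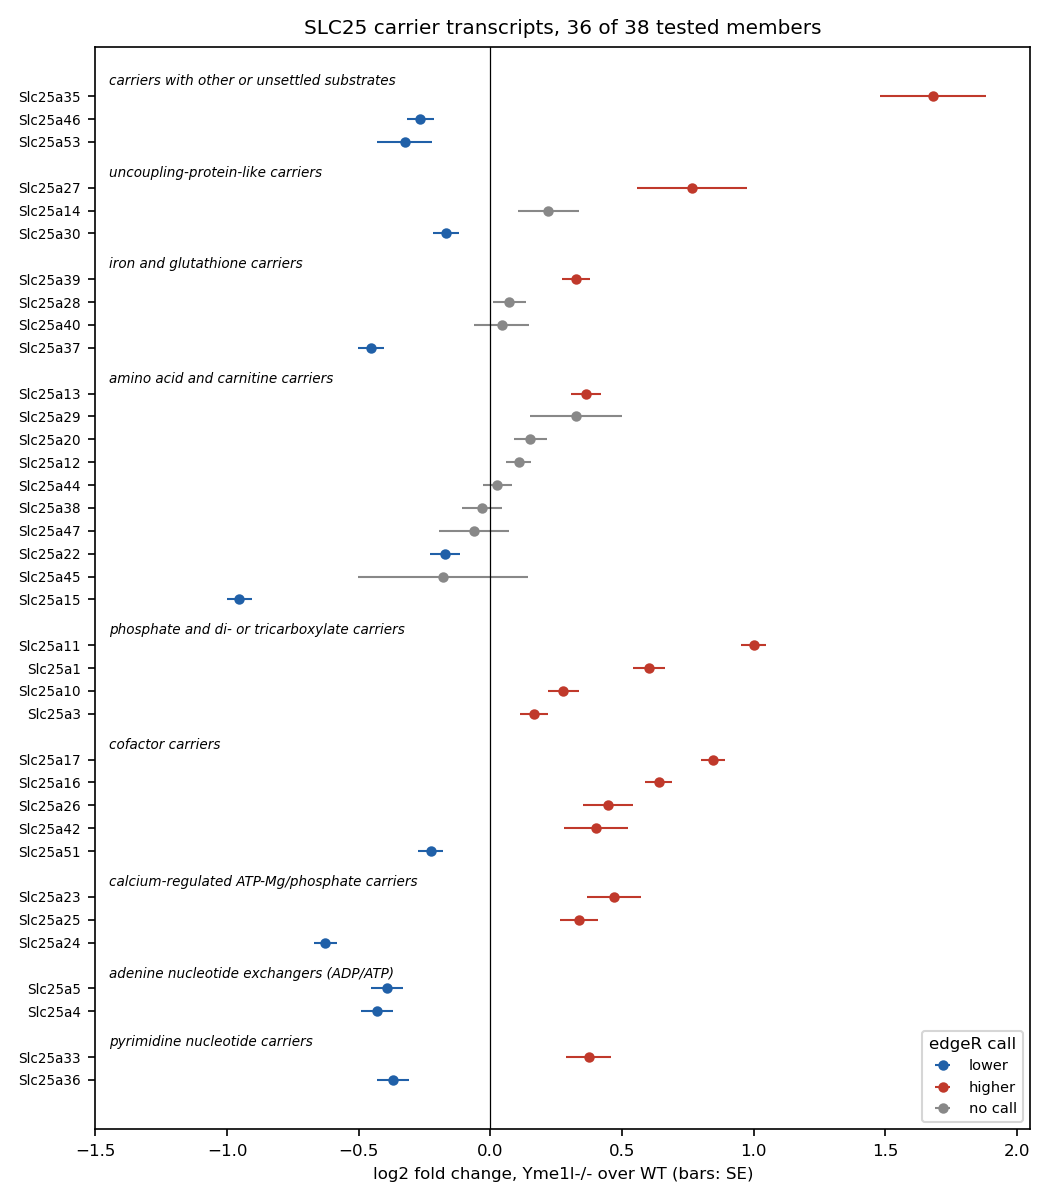
Log2 fold change of Yme1l-/- over WT for 36 of the 38 tested SLC25 members, grouped by the solute they carry, with the standard error as a bar and the call as colour. Slc25a43, which had 0 fragments in Yme1l-/-, and 1 further member are not drawn. All 4 tested phosphate and carboxylate carriers lie to the right of 0 and both ADP/ATP exchangers to the left. With chromosome medians removed (not drawn), Slc25a3 (-0.13) and Slc25a10 (-0.080) fall left of 0, and Slc25a1 (0.62) and Slc25a11 (0.64) stay right.

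The pyrimidine nucleotide carriers moved in opposite directions. Slc25a33 (ENSMUSG00000028982, mm10 chr4:149744036-149774277), an importer of pyrimidine nucleotides into the matrix, had 13.3, 14.6 and 11.9 CPM in the WT libraries and 18.1, 16.2 and 17.2 CPM in the Yme1l-/- libraries. Each Yme1l-/- library exceeded every WT library, with means of 13.2 ± 1.36 and 17.2 ± 0.937 CPM (SD, n = 3). This is a log2 fold change of 0.37 ± 0.09 (SE; 95% interval 0.18 to 0.57; edgeR adjusted p = 0.0026). Slc25a36 (ENSMUSG00000032449, chr9:97074961-97111157), which carries pyrimidine and guanine nucleotides, had 54.2, 58.0 and 53.0 CPM in WT and 39.3, 43.0 and 45.4 CPM in Yme1l-/-. Here all 3 Yme1l-/- libraries lay below WT, and the log2 fold change was -0.37 ± 0.06 (SE; 95% interval -0.51 to -0.23; adjusted p = 0.000245). With chromosome medians removed, the value of Slc25a33 was 0.47, whereas that of Slc25a36, on a chromosome whose tested loci had a median of -0.36, was -0.0096 and no longer passed the test (adjusted p = 0.903). On the scale of the authors' FPKM, which accounts for transcript length, Slc25a36 stood above Slc25a33 in both genotypes, at 18.6 and 7.52 in WT and at 13.8 and 9.76 in Yme1l-/-.

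**Figure D2:**
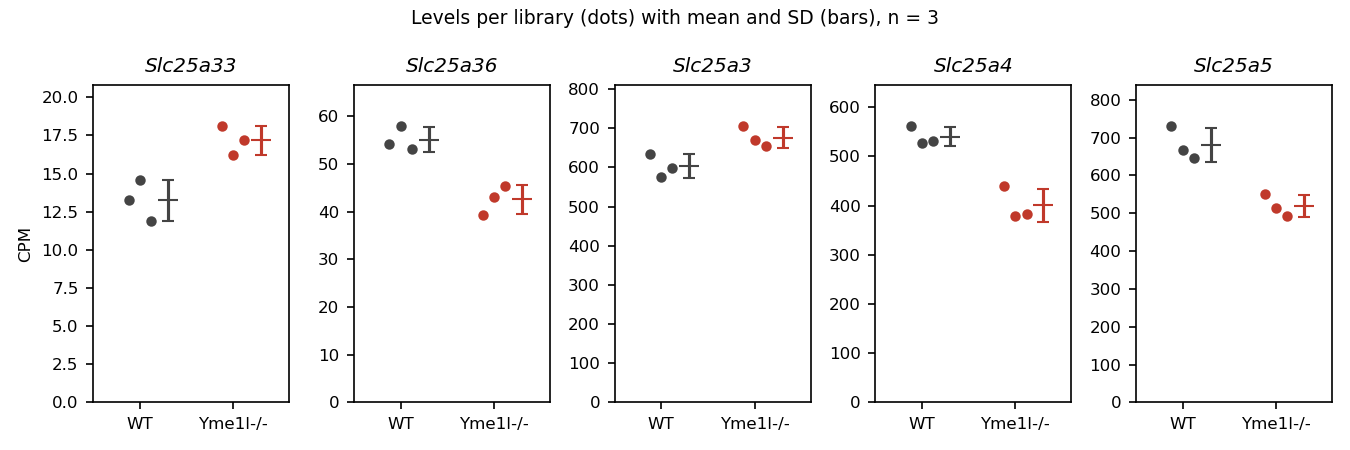
CPM per library (dots) with mean and SD (bars, n = 3) for the pyrimidine carriers and the abundant phosphate and ADP/ATP carriers, each panel with its own axis from 0. The Yme1l-/- libraries lie above WT for Slc25a33 and Slc25a3 and below WT for Slc25a36, Slc25a4 and Slc25a5.

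The adenine nucleotide exchangers, which pass ADP into the matrix and ATP out of it, were both lower in Yme1l-/-. Slc25a4 (ENSMUSG00000031633, chr8:46206797-46211284) had 562, 527 and 531 CPM in WT and 439, 378 and 383 CPM in Yme1l-/-. Its log2 fold change was -0.43 ± 0.06 (SE; adjusted p = 7.79e-05). Slc25a5 (ENSMUSG00000016319, chrX:36795651-36798807) had 731, 666 and 646 CPM in WT and 550, 514 and 492 CPM in Yme1l-/-. Its log2 fold change was -0.39 ± 0.06, with an adjusted p of 0.000153, and for neither gene did the genotypes overlap. With the median of chromosome 8 removed, Slc25a4 stood at -0.12 and did not pass the test, and Slc25a5, with that of the X removed, stood at -0.18 (adjusted p = 0.0221). The testis form of the exchanger, Slc25a31, had at most 3 fragments in a library. Slc25a5-ps, a processed copy of Slc25a5, had between 1 and 10 fragments per library, and how fragments shared with such copies were assigned is not stated.

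Slc25a3 (ENSMUSG00000061904, chr10:91116574-91124059), which brings phosphate into the matrix for ATP synthesis, went the other way. It had 635, 575 and 598 CPM in WT and 706, 669 and 654 CPM in Yme1l-/-, for a log2 fold change of 0.17 ± 0.05 (SE; adjusted p = 0.0182). The libraries did not overlap, but the call was lost without WT replicate 2 (log2 fold change 0.13, adjusted p = 0.0743), and the value was -0.13 with the median of chromosome 10 removed. Slc25a3, Slc25a4 and Slc25a5 together took 58.2% to 59.6% of all carrier fragments in the WT libraries and 53.2% to 55.8% in the Yme1l-/- libraries. By the authors' FPKM they were the most abundant carriers in both genotypes. Slc25a5 stood at 626 in WT and 478 in Yme1l-/-, Slc25a3 at 428 and 478, and Slc25a4 at 302 and 224.

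Carboxylate carriers exchange citric acid cycle intermediates across the inner membrane. The 3 that could be tested were called higher in Yme1l-/-, beside 33.6% of all tested loci called higher. Slc25a11 (ENSMUSG00000014606, chr11:70644196-70651421), the oxoglutarate carrier of the malate-aspartate shuttle, had 64.5, 60.8 and 62.0 CPM in WT and 129, 120 and 126 CPM in Yme1l-/-. Its log2 fold change of 1.00 ± 0.05 (SE) had an adjusted p of 1.03e-08, and the value was 0.64 with the median of chromosome 11 removed. Its exons share 189 bases with Rnf167 on the opposite strand, which had 633, 622 and 679 fragments in WT and 1134, 1687 and 1758 in Yme1l-/-. The kit marked strand, but whether the counting used it is not stated. Slc25a1 (chr16:17925211-17928219), the exporter of citrate, had 28.5, 26.1 and 25.6 CPM in WT and 41.9, 38.8 and 41.3 CPM in Yme1l-/-, for a log2 fold change of 0.60 ± 0.06 (adjusted p = 4.33e-06). The dicarboxylate carrier Slc25a10 had a smaller log2 fold change of 0.28 ± 0.06. With the chromosome median removed it became -0.080 and lost its call (adjusted p = 0.259), beside 62.8% of all loci called in that fit. Slc25a21, a carrier of oxodicarboxylates, had at most 2 fragments in a library.

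Of the cofactor carriers, 5 of the 6 tested were higher in Yme1l-/- and 1 was lower, beside 33.6% and 34.1% of all tested loci. Slc25a17 (chr15:81318921-81360765), a peroxisomal carrier of coenzyme A, FAD and NAD+, had 54.8, 54.3 and 50.8 CPM in WT and 94.4, 96.4 and 96.6 CPM in Yme1l-/-. The rise on the log2 scale was 0.85 ± 0.05 (SE; adjusted p = 3.83e-08), and was 0.25 with the median of chromosome 15 removed. Slc25a16 (chr10:62920633-62946498), linked to mitochondrial coenzyme A, had 27.2, 27.3 and 26.8 CPM in WT and 40.9, 42.9 and 42.8 CPM in Yme1l-/-, for a log2 fold change of 0.64 ± 0.05 (adjusted p = 6.14e-07), which was 0.34 with the chromosome median removed. In each of these genes the highest WT library was well below the lowest Yme1l-/- library. The carriers of S-adenosylmethionine (Slc25a26) and coenzyme A (Slc25a42) rose by 0.45 ± 0.10 and 0.40 ± 0.12 on the log2 scale. With chromosome medians removed, Slc25a26 stood at 0.11 and lost its call (adjusted p = 0.362), whereas Slc25a42 stood at 0.72. Slc25a51, which imports NAD+, fell from 82.4 ± 2.35 to 70.4 ± 2.10 CPM (SD, n = 3), or by 0.23 on the log2 scale (SE 0.05), and stood at -0.13 with the chromosome median removed. Slc25a32, the carrier of folate, was listed at 0 in all 6 libraries. Whether its fragments were assigned to another locus was not tested, so this is no measure of its level.

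The calcium-regulated carriers exchange ATP-Mg for phosphate and so set the adenine nucleotide content of the matrix. The most abundant of them by the authors' FPKM, Slc25a24 (chr3:109123149-109168457), had 162, 167 and 159 CPM in WT and 104, 105 and 108 CPM in Yme1l-/-. Its log2 fold change was -0.63 ± 0.04 (SE; adjusted p = 2.38e-07). Slc25a25 and Slc25a23 went the other way, with log2 fold changes of 0.34 ± 0.07 and 0.47 ± 0.10, or 0.36 and 0.30 with chromosome medians removed. Slc25a41, the remaining form, had at most 2 fragments in a library.

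Of the 10 amino acid and carnitine carriers tested, 1 was higher, 2 were lower and 7 did not pass the test (30% called, beside 67.7% of all loci). With chromosome medians removed, 6 were higher, 2 lower and 2 did not pass, beside 62.8% of all loci called in that fit, so the low share of calls rests on that choice. Slc25a15 (ENSMUSG00000031482, chr8:22375551-22398597), the ornithine carrier of the urea cycle, had 63.1, 60.0 and 59.5 CPM in WT and 32.3, 30.9 and 31.1 CPM in Yme1l-/-. The groups were far apart, at a log2 fold change of -0.95 ± 0.05 (SE; adjusted p = 1.87e-08), and the value was -0.64 with the median of chromosome 8 removed. The aspartate-glutamate carriers of the malate-aspartate shuttle both lay above WT in every Yme1l-/- library, but Slc25a13 passed the test (0.36 ± 0.06) and Slc25a12 did not (0.11 ± 0.05, adjusted p = 0.0616). This turned round with chromosome medians removed, as Slc25a13 stood at 0.022 (adjusted p = 0.747) and Slc25a12 was called (0.13, adjusted p = 0.0315). The glutamate carrier Slc25a22 fell by 0.17 on the log2 scale, a call lost without WT replicate 1 (-0.13, adjusted p = 0.0867) and under upper-quartile scaling (-0.11, adjusted p = 0.0977). The carnitine-acylcarnitine carrier Slc25a20 had a value of 0.15 ± 0.06 with an adjusted p of 0.0535, or 0.51 (adjusted p = 3.41e-05) with the median of chromosome 9 removed. For the glycine carrier Slc25a38 and the branched-chain amino acid carrier Slc25a44, the 95% intervals of the log2 fold change were -0.20 to 0.14 and -0.10 to 0.15, and with chromosome medians removed both were called higher, at 0.33 and 0.14. Slc25a29, a carrier of basic amino acids, averaged 1.54 ± 0.0668 CPM in WT against 1.94 ± 0.266 CPM in Yme1l-/- (SD, n = 3), with an interval of -0.06 to 0.71, and stood at 0.77 (adjusted p = 0.00262) with the chromosome median removed. Slc25a47 and Slc25a45, whose substrates are less settled, had log2 fold changes of -0.06 ± 0.13 and -0.18 ± 0.32, so that only large changes could have been seen for Slc25a45. Slc25a47 was called at 0.38 with the chromosome median removed (adjusted p = 0.0275).

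Among the iron and glutathione carriers, the mitoferrin Slc25a37 fell from 99.9 ± 4.21 to 72.9 ± 3.05 CPM (SD, n = 3), or by 0.45 on the log2 scale (SE 0.05), with an adjusted p of 1.14e-05, and stood at -0.28 with the chromosome median removed. The other mitoferrin, Slc25a28, had 26.1 ± 1.23 and 27.5 ± 1.49 CPM, with overlapping libraries and an interval of -0.07 to 0.21. Of the glutathione carriers, Slc25a39 rose by 0.32 ± 0.05 on the log2 scale, whereas Slc25a40 had a value of 0.04 ± 0.10 and overlapping libraries. The rise of Slc25a39 became -0.033 with the median of chromosome 11 removed.

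Of the 3 carriers that resemble uncoupling proteins, 1 was higher, 1 was lower and 1 did not pass the test (67.7% of all loci were called), or 2, 0 and 1 with chromosome medians removed (62.8% of all loci). Slc25a27 (chr17:43641900-43667015), also called UCP4, had 64, 53 and 92 fragments in WT and 104, 181 and 215 in Yme1l-/-, or 1.93, 1.62 and 2.82 against 2.97, 3.59 and 4.22 CPM. The lowest Yme1l-/- library was close to the highest WT library, and the log2 fold change was 0.77 ± 0.21 (SE; adjusted p = 0.00694). Slc25a30 fell by 0.17 on the log2 scale, and Slc25a14 had a value of 0.22 ± 0.12 with overlapping libraries. After that removal Slc25a30 stood at 0.0014 (under upper-quartile scaling at -0.11, adjusted p = 0.0672) and Slc25a14 was called higher (0.43, adjusted p = 0.00744).

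The largest changes of the family were in carriers without a settled substrate and with few fragments. Slc25a35 (ENSMUSG00000018740, chr11:68968131-68975185) had 32, 23 and 26 fragments in WT and 78, 132 and 155 in Yme1l-/-, which is 0.967, 0.703 and 0.796 against 2.23, 2.62 and 3.04 CPM. This rise of 1.68 ± 0.20 on the log2 scale (SE) had an adjusted p of 1.83e-05. Its exons share 1151 bases with Rangrf on the opposite strand, which had 825, 704 and 685 fragments in WT and 1755, 2398 and 2359 in Yme1l-/-, and without strand the fragments of such a pair cannot be told apart. For Slc25a43 (ENSMUSG00000037636, chrX:36743659-36777202), 52, 48 and 52 fragments were counted in WT and 0 in each Yme1l-/- library. Against a floor of 3 counts in the Yme1l-/- library where these weigh most, it was at least 18-fold lower, with an adjusted p of 7.63e-07. The loci on either side did not share this loss. Gm6274 had 319, 251 and 244 fragments in WT and 311, 420 and 396 in Yme1l-/-, and on the other side lies Slc25a5. Slc25a46, which sits in the outer membrane and takes part in mitochondrial dynamics, fell by 0.27 on the log2 scale. Slc25a53 fell by 0.33, a call lost without Yme1l-/- replicate 3 (-0.29, adjusted p = 0.0548). With chromosome medians removed, both lost their calls, at -0.068 for Slc25a46 (adjusted p = 0.285) and -0.12 for Slc25a53 (adjusted p = 0.346).

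**Figure D3:**
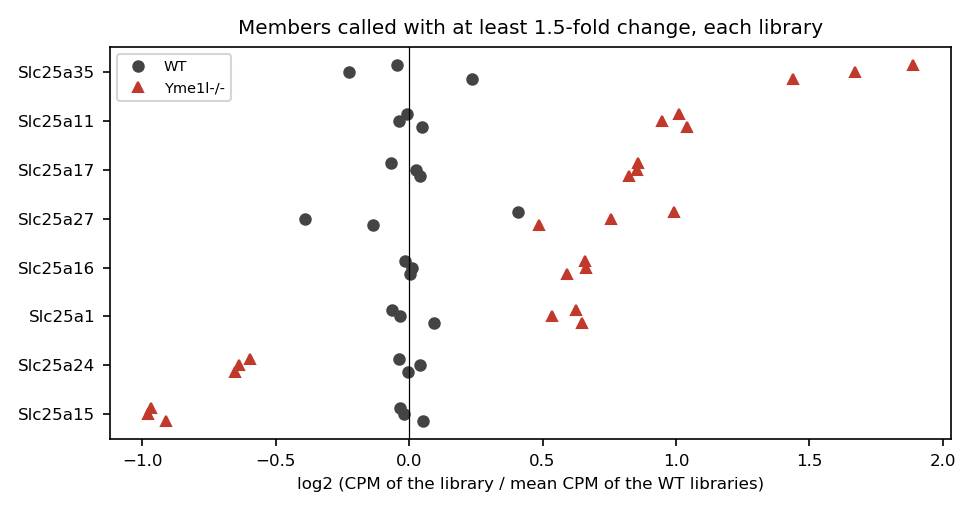
Log2 of the CPM in each library over the WT mean for the called members with a change of at least 1.5-fold, WT as circles and Yme1l-/- as triangles, without Slc25a43. For each gene the triangles lie on the same side of all circles, from Slc25a15 at the low end to Slc25a35 at the high end.

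The 9 members not tested had at most 13 fragments in any library, and 2 of them, Slc25a32 and Slc25a54, were at 0 throughout. Slc25a48 had 13, 8 and 5 fragments in WT and 1, 0 and 2 in Yme1l-/-. Slc25a2, a further ornithine carrier, had 2, 12 and 5 in WT and 1, 3 and 0 in Yme1l-/-. Slc25a18, Slc25a21, Slc25a31, Slc25a34 and Slc25a41 had at most 3 fragments in any library, too few for a difference to be tested.

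Within pairs of related carriers, the share of each form can be read inside a library without scaling between libraries. The genes of each pair lie on different chromosomes, and the shares were not adjusted for chromosome medians. These were, for example, -0.022 for Slc25a12 and 0.34 for Slc25a13, and -0.098 for Slc25a33 and -0.36 for Slc25a36. Their part in the shares was not tested. Slc25a33 took 19.7%, 20.1% and 18.3% of the fragments of Slc25a33 plus Slc25a36 in WT and 31.5%, 27.4% and 27.4% in Yme1l-/-. Slc25a24 took 79.9 ± 1.25% (SD, n = 3) of Slc25a24 plus Slc25a25 in WT and 67.1 ± 1.48% in Yme1l-/-. Slc25a28 took 20.7 ± 0.264% of the mitoferrin fragments in WT and 27.4 ± 1.39% in Yme1l-/-, and Slc25a12 took 59.8 ± 0.875% and 55.4 ± 1.38% of those of the aspartate-glutamate carriers. In these 4 pairs the genotypes did not overlap, which gives p = 0.1 in a two-sided exact permutation test, the smallest p that 3 against 3 libraries allow (0.15 after Benjamini-Hochberg adjustment over 6 pairs). The share of Slc25a4 among the ADP/ATP exchangers was 44.2 ± 0.835% in WT and 43.5 ± 1.05% in Yme1l-/- (exact permutation p = 0.5), and that of Slc25a39 among the glutathione carriers was 87.5 ± 1.18% and 89.5 ± 1.81% (exact permutation p = 0.2), with overlapping libraries in both. The difference in share was 9.44 percentage points for Slc25a33 (8.07 to 10.1 with 1 library left out). For Slc25a4 it was -0.708 and moved to -0.128 without Yme1l-/- replicate 2, -0.269 without WT replicate 3, -1.10 without WT replicate 1 and -1.15 without Yme1l-/- replicate 1. For Slc25a39 it was 1.97 and moved to 0.985 without Yme1l-/- replicate 1.

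**Figure D4:**
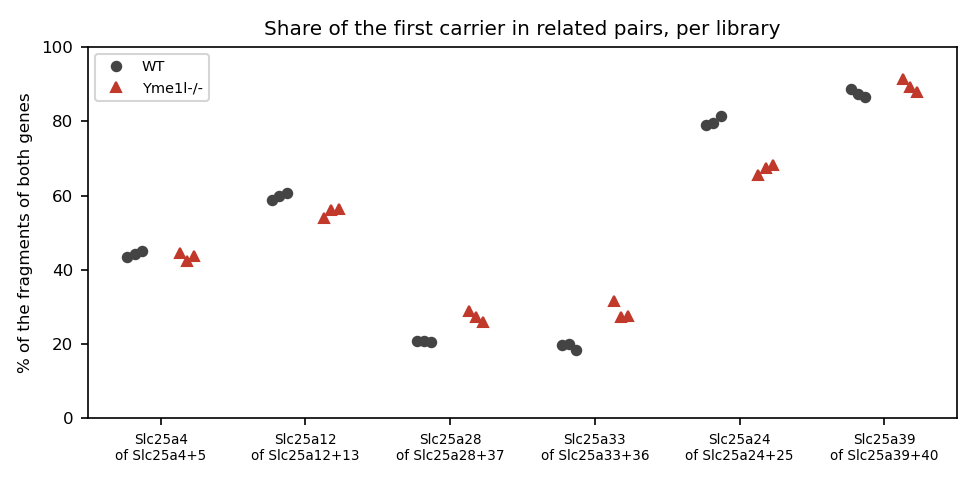
Share (percent) of the first-named carrier in the fragments of each of 6 pairs, per library, WT as circles and Yme1l-/- as triangles. The genotypes separate for 4 pairs, with the widest gap for Slc25a24 and Slc25a25, and overlap for Slc25a4 and Slc25a5 and for Slc25a39 and Slc25a40.

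The changes of the members were set beside those of all loci on their chromosomes. On chromosomes whose tested loci had a median log2 fold change above 0 lay 15 tested members, of which 12 were higher, 0 lower and 3 without a call. On chromosomes with a median below 0 lay 23, of which 4 were higher, 12 lower and 7 without a call. The loci of these 18 chromosomes lean the same way by construction (chromosomes 1 and 13 hold no tested member): on the former, of 5097 tested loci, 53.2% were called higher and 18.4% lower, and on the latter, of 7383, 21.1% higher and 44.4% lower. Chromosome 11, with a median of 0.36 over 1112 loci, held 5 tested members, all higher in Yme1l-/-, among them Slc25a10, Slc25a11, Slc25a35 and Slc25a39. Across the 38 members, the log2 fold change and the chromosome median had a Spearman rho of 0.63 and a Pearson r of 0.31, or 0.63 without Slc25a43. These are descriptions across genes, which share 18 chromosomes and the same 6 libraries. With chromosome medians removed, 17 of the 28 calls were kept in the same direction, 11 were lost, 7 were gained and 0 turned to a call in the opposite direction. The calls gained were Slc25a12, Slc25a14, Slc25a20, Slc25a29, Slc25a38, Slc25a44 and Slc25a47. The members called higher on a chromosome with a median below 0 were Slc25a42 (median -0.32), Slc25a33 (-0.098), Slc25a25 (-0.022) and Slc25a1 (-0.020). Chromosomes 2 and 16, of Slc25a25 and Slc25a1, thus lay near the median of all tested loci (-0.0041).

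**Figure D5:**
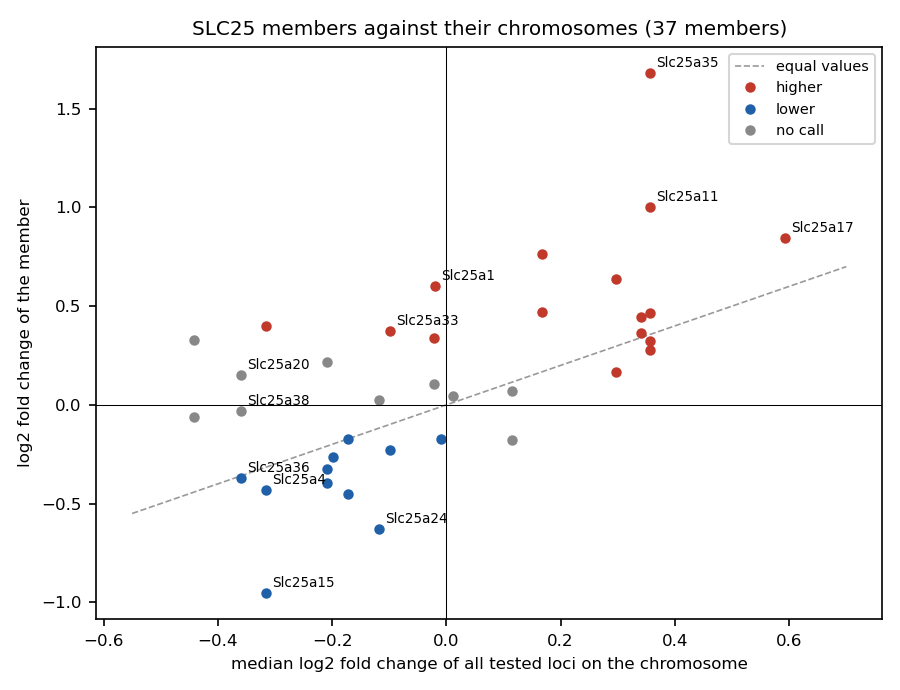
Log2 fold change of each of 37 tested members against the median log2 fold change of all tested loci on its chromosome, coloured by call, with a dashed line of equal values and Slc25a43 not drawn. All members called lower lie left of 0, on chromosomes with a median below 0, and the 12 called higher right of 0 are joined by 4 on the left.

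Upstream sequences are shown for both pyrimidine carriers, which moved in opposite directions, and for Slc25a11, the clearest rise among the well-expressed members. RefSeq (GRCm38.p6) promoters were matched for 36 of the 47 members, 46 promoters in all. Their starts are those of RefSeq, so the stretch of Slc25a11 lies inside the interval given for its locus above. That of Slc25a36 lies mostly inside its interval, and that of Slc25a33 overlaps its interval at the end. The lines give the 120 bases before the transcription start, 5′ to 3′ on the gene's strand, which is minus for each, with a CCAAT box in capitals where the stretch holds it.
Slc25a33, chr4:149774268-149774387: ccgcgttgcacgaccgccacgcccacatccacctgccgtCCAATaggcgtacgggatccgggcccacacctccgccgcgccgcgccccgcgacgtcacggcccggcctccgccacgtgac
Slc25a36, chr9:97111042-97111161: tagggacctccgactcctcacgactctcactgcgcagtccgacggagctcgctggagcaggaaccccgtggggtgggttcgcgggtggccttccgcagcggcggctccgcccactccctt
Slc25a11, chr11:70647040-70647159: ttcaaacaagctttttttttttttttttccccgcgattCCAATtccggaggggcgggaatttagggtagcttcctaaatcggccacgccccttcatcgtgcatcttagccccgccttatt
Over 250 upstream bases and on either strand, CCAAT was found in 45.7% of member promoters and in 33.9% of all 32851 promoters. Among the genes with it were members called higher (Slc25a11, Slc25a33, Slc25a17, Slc25a1) and members called lower (Slc25a36, Slc25a4). The core of the NRF1 motif, GCGCATGC, was found in 4.35% of member promoters and 2.26% of all, and the 2 member promoters with it belong to Slc25a31 and Slc25a54, which had too few fragments to be tested. The ATF4 element TGATGNAA was found in 0 member promoters and 3.45% of all, and the ERR element TCAAGGTCA in 0 and 0.387%. These letters in these windows are a description of the sequence and say nothing of the factors.

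Genes that work beside the carriers also changed in both directions. Of SLC25 family genes under other symbols, 3 were tested and 2 called, beside 67.7% of all loci. Mtch1 was higher (0.14 ± 0.05), Ucp2 was lower (-0.71 ± 0.17) and Mtch2 did not pass, while Ucp1 and Ucp3 were at 0. The call of Mtch1 was lost with chromosome medians removed (-0.022, adjusted p = 0.689) and without WT replicate 2 (0.12, adjusted p = 0.0704). Of 10 genes for the import of carriers, 4 were higher and 4 lower, which is 80% called beside 67.7% among all loci, but only 4 of the 10 were called with chromosome medians removed, beside 62.8% among all loci. The highest were Agk and Timm22, subunits of the TIM22 complex, at 0.79 ± 0.07 and 0.54 ± 0.06. The lowest were Timm29, of the same complex, at -0.60 ± 0.05 and the small TIM chaperone Timm9 at -0.43 ± 0.06. With the medians removed these stood at 0.45, 0.19, -0.24 and, without a call, 0.0081.

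Of 16 other transporters of the inner membrane, 7 were higher and 2 lower (56.2% called, beside 67.7% of all loci). After removal of chromosome medians 13 of the 16 were called, beside 62.8% of all loci, and without WT replicate 2 the number was 6. Sfxn4, a sideroflexin, had 8, 9 and 13 fragments in WT and 62, 105 and 130 in Yme1l-/- (log2 fold change 2.80 ± 0.26), and the ABC transporter Abcb8 rose by 0.79 ± 0.06. The sideroflexins Sfxn5 and Sfxn3 fell, at -0.40 ± 0.13 and -0.13 ± 0.05. Without WT replicate 2 both calls were lost (-0.27 and -0.12), and that of Sfxn3 was also lost without WT replicate 3 (-0.10), Yme1l-/- replicate 2 (-0.11) or Yme1l-/- replicate 3 (-0.14) and under upper-quartile scaling (-0.068). Of 29 enzymes that make or use the carried solutes, 15 were higher and 6 lower (72.4% called, beside 67.7% of all loci). The mitochondrial kinase of pyrimidine monophosphates, Cmpk2, rose by 1.97 ± 0.16. The adenylate kinase Ak4 had 269, 277 and 253 fragments in WT and 44, 89 and 81 in Yme1l-/- (-2.38 ± 0.14), and Gpd2, of the glycerol phosphate shuttle, stood at -0.59 ± 0.05.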

How the data were processed

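Poly(A) RNA of 3 WT and 3 Yme1l-/- cultures was sequenced on a NovaSeq as paired-end reads from stranded libraries amplified by PCR. Per the study's methods and the submitters' processing notes, the authors mapped reads to GRCm38 (mm10) with HISAT2 2.0.4, assembled transcripts with StringTie 1.3.3 and compared genotypes with Cuffdiff 2.2.1. The deposited count table holds raw fragment counts per assembled locus, not normalized. The authors' comparison table holds FPKM as a combined value per genotype, without SD, beside a log2 ratio, p-values and q-values of their own test, which were not used. Coordinates come from that table, with starts counted from 1. They are the intervals of its loci, and genes that overlap can share an interval there, so an interval can be wider than the gene. The handling of fragments with several positions is not stated.

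Counts were tested in R 4.3.3 with edgeR 4.0.16 (limma 3.58.1): filterByExpr with a minimum count of 10, TMM scaling, the robust quasi-likelihood test, two-sided, without covariates, and Benjamini-Hochberg adjustment over 13867 loci, with a call at an adjusted p under 0.05. Every adjusted p of a gene is from this test or, where an alternative is named with it, from the fit under that alternative. SE is the log2 fold change divided by the root of the F statistic. With 33180867 to 49351107 fragments per library, SE of tested members lay between 0.044 and 0.32 on the log2 scale (Slc25a43 apart). Floors (3 counts) cover counting error only, since PCR copies were not identified. The script was tested on simulated data. Coding sequences were aligned with Biopython 1.88. Members were named if they carry pyrimidines, if they are Slc25a3, Slc25a4 or Slc25a5, or if called with a change of at least 1.5-fold, and others were summarised by role with up to 2 examples or, where they bear on a pair or lose a call, by name after their values were seen. In the other lists, the 2 highest and the 2 lowest calls were named. Values of some single genes are not reported here. The members and lists were chosen with earlier results of these data known. In the transporter list, Abcb10 was not found, and 1 locus in each of the import, transporter and enzyme lists was merged with a neighbour. Alternatives were DESeq2 1.42.0 with its Wald test, RLE and upper-quartile scaling, other filters, the replicate number as a block, libraries thinned to equal depth, chromosome medians subtracted, and each culture left out in turn.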

Additional observations from a re-analysis of the deposited data

How the results depend on the processing

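The counts of 16 higher and 12 lower members were unchanged under RLE scaling and the DESeq2 Wald test, with all 28 calls kept. Leaving out each culture in turn gave 15 to 17 higher and 11 to 12 lower. Upper-quartile scaling gave 18 higher and 10 lower and a median log2 fold change of 0.19, with the calls of Slc25a22 and Slc25a30 lost and those of Slc25a12 and Slc25a20 gained. The calls gained with the block, thinning or a culture left out were Slc25a12 (replicate block, without WT replicate 3), Slc25a20 (thinning, without Yme1l-/- replicate 1) and Slc25a14 (without Yme1l-/- replicate 3). With only a total of 1 count required, the median was 0.067 and 14 members were lower, and with at least 10 counts in every sample Slc25a43 could not be tested. Removing chromosome medians moved the most values: 7 members lower, a median of 0.068, Slc25a36 at -0.0096 without a call, and the sign turned for Slc25a3 (-0.13), Slc25a10 (-0.080), Slc25a30 (0.0014), Slc25a38 (0.33), Slc25a39 (-0.033), Slc25a47 (0.38) and Slc25a28 (-0.043, without a call in either fit). Under it, 4 carrier import genes and 1 SLC25 family gene under another symbol were called, and the latter count lay between 1 and 2 when cultures were left out. Slc25a33 kept its call in every alternative run. With the replicate number as a block (replicate block), 17 members were higher and 12 lower, and 9794 loci were called. Deviations of same-numbered libraries from their group means correlated at 0.222, -0.194 and 0.0516, so the numbers were not taken to pair the cultures. Depth limits the members with at most 13 fragments in a library (for Slc25a32, at 0, the assignment of fragments is also in doubt), and Slc25a45, with an SE of 0.32. The cause of these shifts was not tested.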
